A study of Homo sapiens with 24 samples.

Results

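The genes described here are 41 integrin and focal adhesion genes, picked by name from a fixed list of integrin subunits, adhesion kinases and scaffolds, actin linkers, the actin regulators RHOA, RAC1, CDC42, ROCK1 and ROCK2, and matrix ligands. All 41 had at least 1 of their 79 probes on the array, among 30982 gene names in all. RNA of U87 MG cells, an established human glioblastoma line, was measured 24 h after irradiation in 4 configurations: U87 2 Gy and U87 10 Gy, irradiated with protons (proton therapy, PT) and compared with untreated U87 cells, then U87 Si306 + 2 Gy as well as U87 Si306 + 10 Gy, given the SRC kinase inhibitor Si306 at 10 µM ahead of the protons and compared with cells that had received protons alone at the same dose. No group held Si306 without irradiation, so the last 2 configurations describe what Si306 added to PT. Each configuration was deposited as 6 replicates.

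Integrins are paired receptors, made of an alpha and a beta subunit, that hold cells on matrix proteins such as fibronectin, laminins, collagens and thrombospondin. When they bind matrix they gather a focal adhesion inside the cell: talin opens the integrin, vinculin, alpha-actinin, filamin, tensin and zyxin tie it to actin, and focal adhesion kinase (PTK2), together with SRC, phosphorylates paxillin (PXN) and p130Cas (BCAR1). In glioblastoma this machinery is known for its part in invasion and in survival on brain matrix.

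The values are log2 ratios of treated RNA (Cy5) to control RNA (Cy3) within an array. The file headers showed that the 24 deposited replicates were 8 arrays, each scanned 3 times, with PT alone on 1 slide and the Si306 configurations on the other. The 3 scans were averaged, which leaves n = 2 arrays for each configuration, and the error given after ± is the standard error (SE) of the limma model fitted over all genes. Median SDs of the difference between 2 scans were 0.0738 for the same array, 0.106 for the other array of a configuration and 0.394 across configurations. The headers placed 2 scans on an array of the other dose than their label, and these were left out. The red and green channels were well above background for 57.3% to 74.7% of the spots of a scan. No array had its dyes swapped, so dye and treatment cannot be told apart, and the PT and Si306 configurations were never on the same slide. Nothing in the sources says whether the 2 arrays came from separate cultures, so the p-values measure the spread between arrays only. The U87 markers VIM, NES, CD44 and TNC were above background on all 8 arrays in both channels and CHI3L1 on 4, whereas PTPRC, CDH1 and AQP4, markers of leukocytes, epithelium and astrocytes, were on 0. Other markers of these and other cell types were not absent: CD3E, VWF, KRT18, GFAP and SYT1 were above background in the red channel of 8 arrays, and their part in the results was not tested.

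Before normalization, ratios rose with the brightness of the probe. With each scan only centred on its median, the median log2 ratio for U87 2 Gy went from -0.31 among the dimmest 20% of the tested genes to 0.66 among the brightest 20%. It went from -0.24 to 0.54 for U87 10 Gy. With Si306 the rise was from -0.44 to 1.04 at 2 Gy and from -0.22 to 0.67 at 10 Gy. The loess curve used for the values below brought these medians to between -0.01 and 0.05. Adhesion genes were mostly bright: 20 of the 39 tested members lay in that brightest bin and 1 in the dimmest. Therefore, the direction of each called member on its brightest probe was also read without loess, relative to the shift that centring gave to the median of all genes, and the turned signs are given for the members described. Other probes and the wider list at the end were not read this way. Whether the brightness trend came from the dyes or from the RNA was not tested.

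A member counts as up regulated or down regulated when its adjusted p was under 0.05 (limma, Benjamini-Hochberg over all genes tested), and 39 of the 41 had a probe that could be tested. ITGA8 was above background on 0 arrays and ITGB6 on 1, so neither was tested. ITGA10 in the PT configurations and ITGA4 in the Si306 configurations were not well above background in either channel, so no change of theirs is described there. ITGB8 in the untreated cells and ITGA11 in the controls of the Si306 configurations were also not well above background on any array, so no fold is given for them there. All of these calls stay in the counts below, ITGA4 and ITGA11 among the members higher with Si306, and ITGA4, ITGA11 with Si306 and ITGB8 after PT turned sign without loess.

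**Figure D1:**
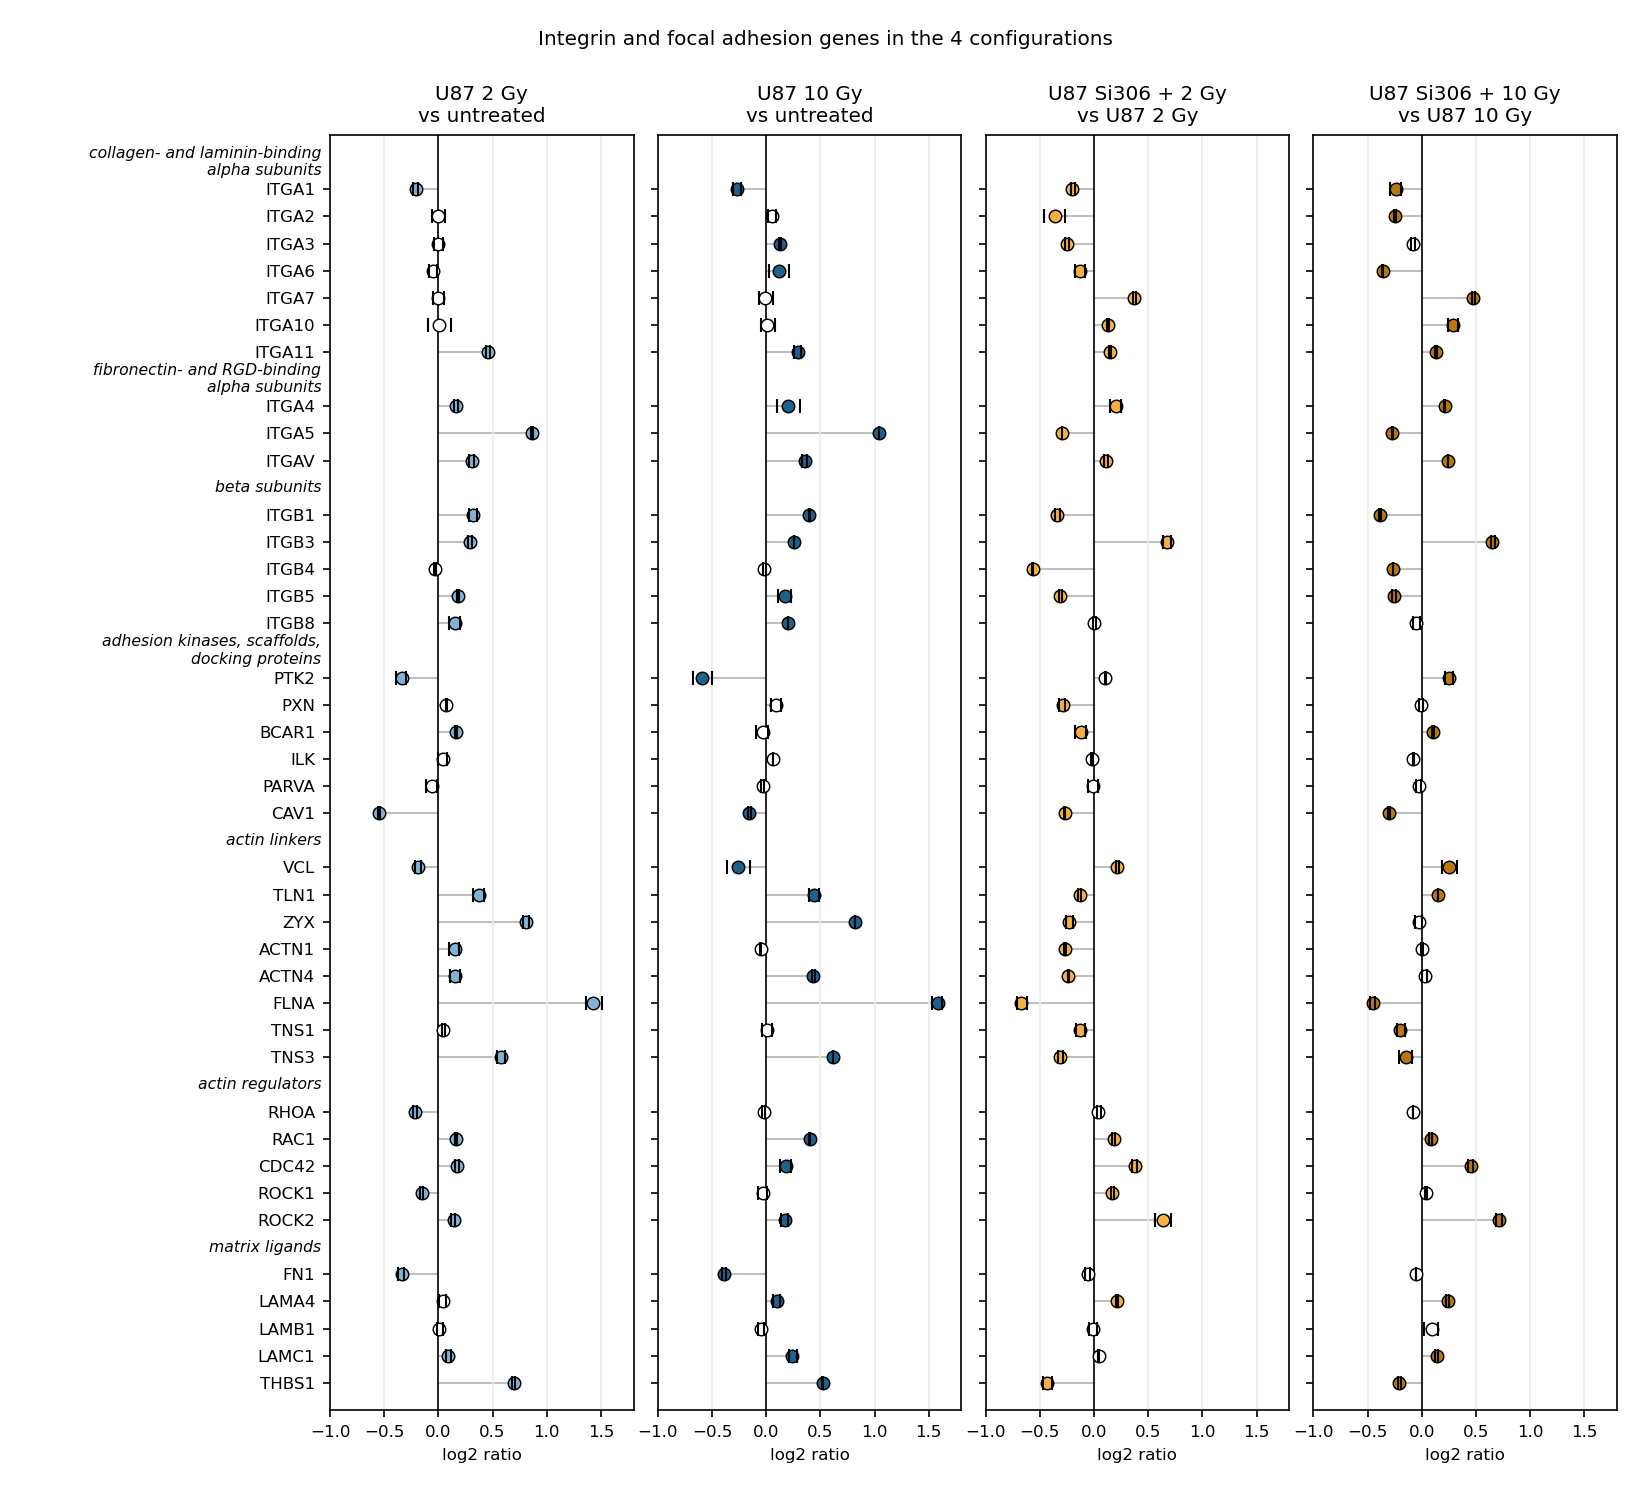
Log2 ratio (horizontal axis) of the 39 tested members in each configuration, grouped by role; circles are the means over arrays, filled where the adjusted p was under 0.05 and open otherwise, and vertical ticks are the single arrays. FLNA, ITGA5, ZYX and THBS1 lie farthest to the right in U87 2 Gy, and FLNA lies below 0 in both Si306 configurations; the falls of ITGB1, ITGB5, CAV1, TNS3 and THBS1 with Si306 turned sign without loess.

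PT alone raised more adhesion genes than it lowered. In U87 2 Gy, 20 of the 39 members were up regulated (51.3%, against 32.1% of all tested genes) and 7 were down regulated (17.9%, against 24.9%). In U87 10 Gy, 21 were up regulated (53.8%, against 31.1%) and 5 down regulated (12.8%, against 26.3%). Among all genes well above background in both channels of every array, the shares were 38% and 37.5% higher, 32.3% and 33.8% lower. The median log2 ratio of the members was 0.09 and 0.12, against 0.02 over all genes in both configurations. Both doses share the untreated control RNA, so they are not independent of each other. Without loess, 21 of the 27 called members in U87 2 Gy and 20 of the 26 in U87 10 Gy kept their sign. Among these were 18 of the 20 and 18 of the 21 up regulated members, but 3 of the 7 and 2 of the 5 down regulated ones. The shift taken off was only 0.25 and 0.20, while without loess the brightest 20% of genes read 0.66 and 0.54. The members read 0.66 and 0.55. The check could thus hardly turn rises of bright members and readily turned falls, so it does not show rises to be firmer.

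Changes of at least 2-fold were rare. Such changes, with an adjusted p under 0.05, were found for 0.725% of all genes in U87 2 Gy and 0.964% in U87 10 Gy, and among the members for FLNA at both doses and ITGA5 at 10 Gy.

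The 4 members with the highest ratios in U87 2 Gy were FLNA, ITGA5, ZYX and THBS1. Their promoters are shown because these 4 genes rose together, as the 250 bases before the start site in RefSeq (GRCh38.p14), 5′ to 3′ on the strand of the gene. Capitals mark a CArG box, the binding letters of serum response factor, or GGAATG, letters bound by TEAD factors.
FLNA (chrX:154374635-154374884, minus strand): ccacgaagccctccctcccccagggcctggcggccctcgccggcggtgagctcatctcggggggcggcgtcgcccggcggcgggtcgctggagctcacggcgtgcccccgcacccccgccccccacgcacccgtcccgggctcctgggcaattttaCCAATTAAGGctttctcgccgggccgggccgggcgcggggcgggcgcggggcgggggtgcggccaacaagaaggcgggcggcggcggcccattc
ITGA5 (chr12:54419267-54419516, minus strand): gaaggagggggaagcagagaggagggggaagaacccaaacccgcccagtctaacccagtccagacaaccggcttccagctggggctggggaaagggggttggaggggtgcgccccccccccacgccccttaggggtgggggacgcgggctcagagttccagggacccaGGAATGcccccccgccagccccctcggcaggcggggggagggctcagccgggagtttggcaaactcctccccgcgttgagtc
ZYX (chr7:143381095-143381344, plus strand): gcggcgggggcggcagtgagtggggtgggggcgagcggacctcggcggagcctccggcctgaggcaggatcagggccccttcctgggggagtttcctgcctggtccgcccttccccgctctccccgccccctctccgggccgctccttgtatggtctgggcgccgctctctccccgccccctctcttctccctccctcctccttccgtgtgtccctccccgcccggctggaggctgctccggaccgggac
THBS1 (chr15:39580829-39581078, plus strand): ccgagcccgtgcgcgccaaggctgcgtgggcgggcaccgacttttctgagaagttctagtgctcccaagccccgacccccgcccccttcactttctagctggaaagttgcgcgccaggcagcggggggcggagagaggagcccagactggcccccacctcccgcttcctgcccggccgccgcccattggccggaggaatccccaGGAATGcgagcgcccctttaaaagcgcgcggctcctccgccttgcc

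Searched on both strands, 4 of the 34 members with a promoter in the table held a CArG box at 1 or more of their start sites (ACTN1, FLNA, ITGB6 and ROCK2), that is 4 of 57 member start sites (7.02%) against 1.16% of all 35116 start sites. The box of FLNA lies from 94 to 85 bases before the start. GGAATG stood in 17.5% of the member start sites against 11.9% of all, in ITGA5 at 82 to 77 bases and in THBS1 at 46 to 41 bases before the start. TGANTCA, bound by AP-1, stood in 3.51% against 6.57%, and GGGCGG, bound by SP1, in 63.2% against 42.6%, with 5 copies each in FLNA and ZYX, 4 in THBS1 and 1 in ITGA5. TGANTCA was in none of the 4 promoters shown, and ZYX held neither the CArG box nor GGAATG. These matches describe letters only.

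The highest ratio after PT was that of an actin linker, FLNA. Of the 8 actin linkers tested, 6 were up regulated and 1 down regulated in U87 2 Gy, where 32.1% and 24.9% of all genes were, and 5 and 1 in U87 10 Gy, where 31.1% and 26.3% were. FLNA, filamin A, which crosslinks actin and binds integrin tails, had log2 ratios of 1.51 and 1.36 on the arrays of U87 2 Gy and 1.62 and 1.53 on those of U87 10 Gy. The lowest array was thus at 1.36, with means of 1.43 ± 0.04 (2.70-fold, adjusted p = 1.61e-09, limma) and 1.58 ± 0.04 (2.98-fold, adjusted p = 5.02e-10, limma). ZYX, zyxin, which is recruited to strained actin at adhesions, read 0.84 and 0.78 at 2 Gy and 0.82 on both arrays at 10 Gy, with means of 0.81 ± 0.03 and 0.82 ± 0.03 (1.75-fold and 1.77-fold). TNS3, tensin 3, read 0.61 and 0.54, and then 0.62 on both arrays (means of 0.58 ± 0.04 and 0.62 ± 0.04), but its other probe was not called (0.08 and -0.07). Talin 1, TLN1, rose on both of its probes, by 0.37 and 0.62 at 2 Gy and by 0.44 and 0.78 at 10 Gy. ACTN4, an alpha-actinin, rose by 0.15 ± 0.03 and 0.43 ± 0.03 on its brightest probe and by 0.49 and 0.52 on the other. Vinculin, VCL, was the linker called lower, at -0.19 ± 0.05 and -0.26 ± 0.05, but its sign turned without loess (0.18 and 0.04) and its other probe read 0.13 and -0.13. TNS1 was not called at either dose.

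Among the alpha subunits that pair to bind fibronectin and other RGD proteins, all 3 tested were called higher at each dose, against 32.1% and 31.1% of all genes, with the sign of ITGA4 turned without loess. ITGA5, the alpha subunit of the classical fibronectin receptor, read 0.85 and 0.87 on the arrays of U87 2 Gy and 1.04 on both arrays of U87 10 Gy. The arrays of the doses did not overlap, and the means were 0.86 ± 0.03 (1.82-fold, adjusted p = 2.21e-08) and 1.04 ± 0.03 (2.06-fold, adjusted p = 4.02e-09, limma). ITGAV, the vitronectin receptor subunit, read 0.28 and 0.33, then 0.33 and 0.38 (means of 0.31 ± 0.03 and 0.36 ± 0.03), but its other probe read -0.23 and -0.06. ITGA4 (0.16 ± 0.05 and 0.20 ± 0.05) was dim on some arrays of U87 2 Gy, and its sign turned without loess at both doses.

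Of the 7 collagen- and laminin-binding alpha subunits tested, ITGA11, a collagen receptor subunit, rose by 0.46 ± 0.03 in U87 2 Gy and 0.29 ± 0.03 in U87 10 Gy, and ITGA1, also a collagen receptor subunit, fell to -0.21 ± 0.04 and -0.27 ± 0.04. ITGA2, ITGA7 and ITGA10 passed the test at neither dose, although the other probe of ITGA2 rose by 0.36 in U87 10 Gy. ITGA3 and ITGA6, which bind laminins, were called in U87 10 Gy alone, at 0.13 and 0.12, but neither differed between the doses by the test below and ITGA6 turned sign without loess.

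Of the 5 beta subunits tested, 4 were called higher at each dose, against 32.1% and 31.1% of all genes. ITGB3, partner of ITGAV, rose by 0.29 ± 0.03 and 0.26 ± 0.03 on its brightest probe and by 0.32 and 0.41 on another, while the remaining probe fell (-0.16 and -0.28). ITGB5, another partner, rose by 0.18 ± 0.04 and 0.17 ± 0.04. ITGB8, also a partner of ITGAV, was called at a control signal not well above background and turned sign without loess (-0.34 and -0.18), and ITGB4, which pairs with ITGA6 in hemidesmosomes, read -0.03 and -0.02. ITGB1, the partner of most alpha subunits, gave no single direction. Its brightest probe read 0.36 and 0.28 in U87 2 Gy and 0.39 and 0.40 in U87 10 Gy, with means of 0.32 ± 0.03 and 0.39 ± 0.03. Its other 3 probes read 0.04, -0.12 and -0.34 at 2 Gy and -0.16, -0.26 and -0.46 at 10 Gy.

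Focal adhesion kinase moved the other way. PTK2 read -0.30 and -0.39 in U87 2 Gy and -0.50 and -0.68 in U87 10 Gy, which gave means of -0.34 ± 0.04 (adjusted p = 6.38e-05) and -0.59 ± 0.04 (adjusted p = 8.95e-07, limma). All 3 PTK2 probes were down regulated at both doses, the other two at -0.13 and -0.21 in U87 2 Gy and -0.13 and -0.25 in U87 10 Gy, and without loess the brightest probe read -0.07 and -0.36. CAV1, caveolin 1, fell on its brightest probe, to -0.55 ± 0.03 in U87 2 Gy and -0.16 ± 0.03 in U87 10 Gy. Its other probe read 0.15 and -0.12, and the sign at 10 Gy turned without loess (0.22). Of the SRC substrates, PXN read 0.07 ± 0.04 and 0.09 ± 0.04 on its brightest probe and passed the test at neither dose, while another of its probes rose by 0.39 and 0.42. BCAR1 rose by 0.16 ± 0.04 in U87 2 Gy and read -0.03 ± 0.04 in U87 10 Gy. The pseudokinase ILK and its partner PARVA were not called on their brightest probes at either dose, whereas their other probes rose (0.10 and 0.12 for ILK, 0.20 and 0.24 for PARVA).

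Regulators of actin assembly changed by small amounts. RAC1, which drives membrane ruffles, rose by 0.16 ± 0.03 and 0.40 ± 0.03, and CDC42, which drives filopodia, by 0.17 ± 0.04 and 0.18 ± 0.04. RHOA, which drives stress fibres, and its effector kinase ROCK1 were called lower in U87 2 Gy (-0.22 and -0.15), but both signs turned without loess. Their other 2 probes were lower at both doses, from -0.14 to -0.30 for RHOA and from -0.25 to -0.38 for ROCK1. ROCK2 rose by 0.14 ± 0.04 and 0.17 ± 0.04.

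Matrix ligands were split. THBS1, thrombospondin 1, a secreted ligand of several integrins, read 0.68 and 0.71 in U87 2 Gy and 0.52 and 0.51 in U87 10 Gy. Its means were 0.70 ± 0.03 (1.62-fold) and 0.52 ± 0.03 (1.43-fold), and its other probe rose as well, by 0.29 and 0.25. FN1, fibronectin, gave different answers by probe. The brightest read -0.34 ± 0.03 and -0.39 ± 0.03, another 0.22 and 0.05, and the last, which the array lists under another transcript record of the gene, 0.65 and 0.88. Without loess the brightest probe read 0.12 and 0.00. Laminin chains moved by at most 0.24, in LAMC1 at 10 Gy, and LAMB1 was not called.

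**Figure D2:**
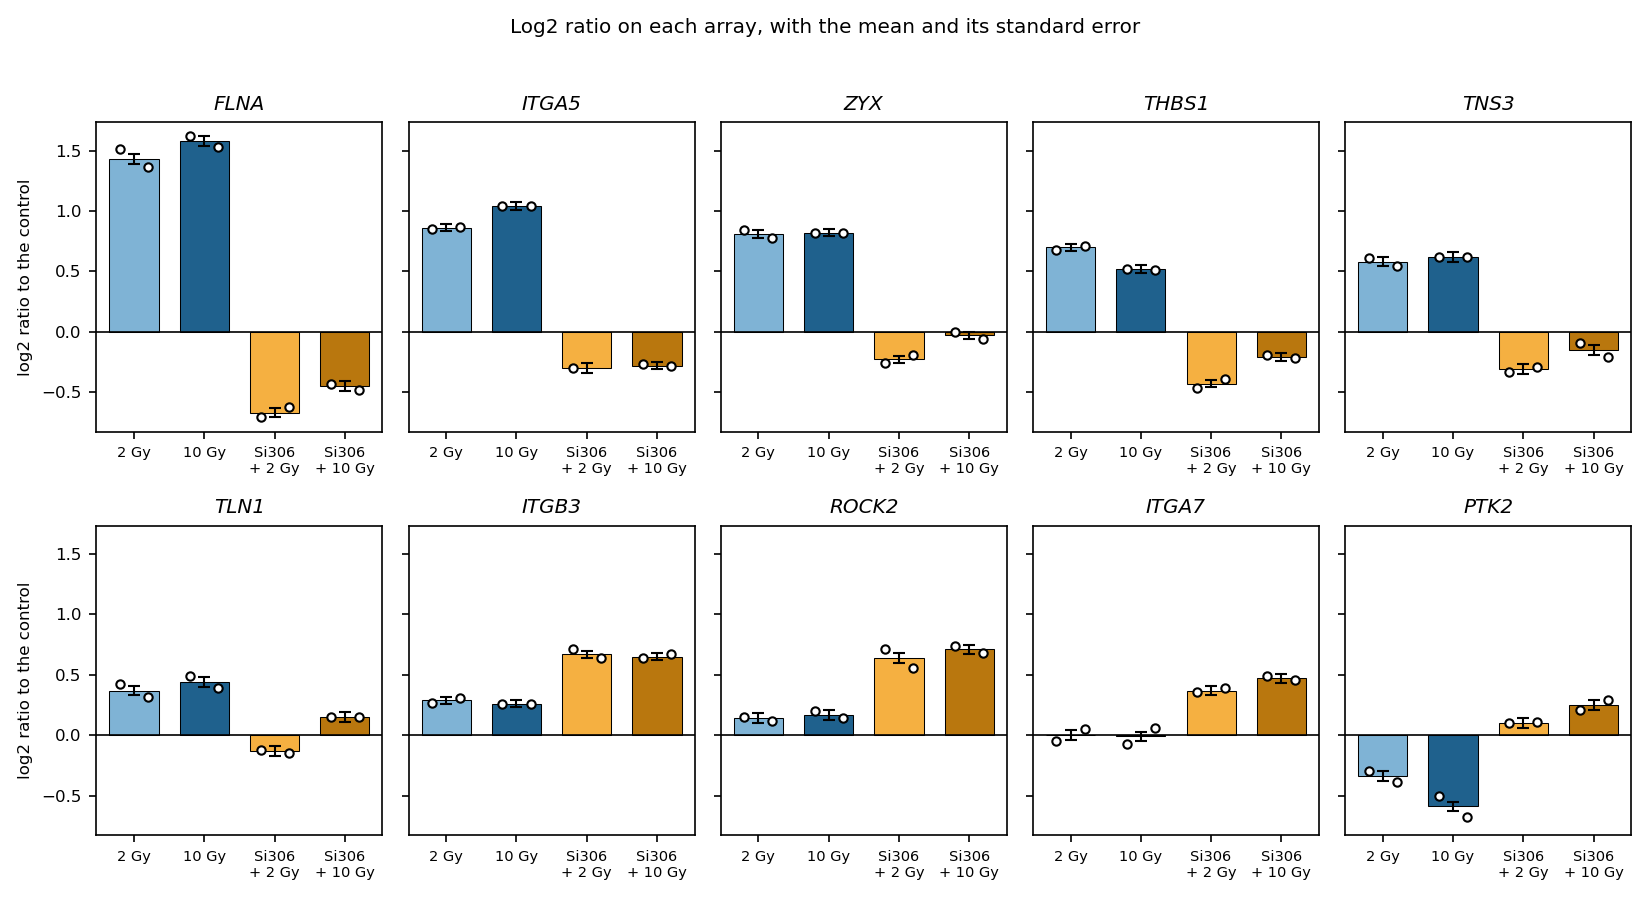
Log2 ratio to the control (vertical axis) of 10 members in the 4 configurations; bars are means over arrays, whiskers the SE of the fit and white circles the single arrays (1 array for ITGA5 in U87 Si306 + 2 Gy). FLNA is at 1.36 or more on every PT array and at -0.43 or less on every Si306 array, and ITGB3 and ROCK2 reach 0.56 or more on every Si306 array; the falls of THBS1 and TNS3 with Si306, and of TLN1 at 2 Gy, turned sign without loess.

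Si306 added to PT gave a divided picture. In U87 Si306 + 2 Gy, 12 of the 39 members were up regulated (30.8%, against 38.5% of all genes) and 19 down regulated (48.7%, against 27.8%), with a median of -0.06 against 0.04 over all genes. In U87 Si306 + 10 Gy, 15 were up regulated (38.5%, against 35.1%) and 12 down regulated (30.8%, against 27.1%), with a median of -0.01 against 0.03. Among all genes well above background in both channels of every array, the shares were 41.7% and 39.3% higher, 35% and 34.7% lower. The member counts depended on the loess step. Without it, 10 of the 12 up regulated members but only 6 of the 19 down regulated members kept their sign in U87 Si306 + 2 Gy. In U87 Si306 + 10 Gy, 13 of 15 and 5 of 12 did. Here too the shift taken off (0.39 and 0.23) was below the member medians without loess (0.92 and 0.58), which favoured rises of bright members. No member passed 2-fold in either configuration, where 0.725% and 0.371% of all genes did. 

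The members that fell with Si306 and kept that sign without loess, relative to the shift, were FLNA, ITGA5, ITGA2 and TNS1 at both doses. ITGB4 and ZYX did so at 2 Gy, and ITGA1 at 10 Gy (-0.01 without loess). Before the shift was taken off, only FLNA (-0.30 and -0.18) and ITGA2 (-0.22 and -0.13) stayed negative at both doses. The other 2 probes of TNS1 were not called, at -0.04 and 0.11 and then at -0.07 and 0.01. FLNA read -0.71 and -0.62 on the arrays of U87 Si306 + 2 Gy and -0.43 and -0.48 on those of U87 Si306 + 10 Gy. Its means were -0.67 ± 0.04 (1.59-fold lower, adjusted p = 2.93e-07) and -0.45 ± 0.04 (1.37-fold lower, adjusted p = 6e-06, limma). Without loess, less the shift of all genes, its means were -0.69 and -0.41. FLNA has 1 probe on the array. ITGA5 read -0.30 on the 1 array of U87 Si306 + 2 Gy that measured it, since its spot was left out on the other array, and -0.27 and -0.28 in U87 Si306 + 10 Gy. ITGA2, a collagen receptor subunit, fell on its brightest probe to -0.36 ± 0.05 and -0.25 ± 0.05, but its other probe read 0.39 and 0.43. The control RNA of these configurations is that of PT alone, so a member that PT raised and Si306 lowered has its PT-treated RNA in both ratios.

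ITGB4 read -0.57 and -0.56 in U87 Si306 + 2 Gy and -0.27 on both arrays of U87 Si306 + 10 Gy, with means of -0.56 ± 0.03 (adjusted p = 7.95e-08) and -0.27 ± 0.03 (adjusted p = 2.19e-05, limma). Without loess these were -0.12 and 0.07. THBS1 fell to -0.43 ± 0.03 and -0.21 ± 0.03 under loess and read 0.03 and 0.13 without it. ITGB1 fell on its brightest probe to -0.34 ± 0.03 and -0.39 ± 0.03, and all 4 of its probes were below 0 in both configurations (from -0.10 to -0.56 and from -0.06 to -0.70), but the brightest probe read 0.71 and 0.36 without loess. CAV1 (-0.27 and -0.30), ITGB5 (-0.31 and -0.26), TNS3 (-0.31 and -0.15) and ITGA6 (-0.13 and -0.36) likewise turned sign without loess in both configurations.

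Among the members that rose with Si306, ITGB3 read 0.71 and 0.64 in U87 Si306 + 2 Gy and 0.64 and 0.67 in U87 Si306 + 10 Gy. Its means were 0.67 ± 0.03 (1.59-fold, adjusted p = 3.7e-08) and 0.65 ± 0.03 (1.57-fold, adjusted p = 6.5e-08, limma), with 0.56 and 0.61 without loess. The other 2 ITGB3 probes were also above 0, at 0.22 and 0.26 in U87 Si306 + 2 Gy and 0.15 and 0.04 in U87 Si306 + 10 Gy. ITGA7, a laminin receptor subunit with 1 probe, read 0.36 and 0.39, then 0.49 and 0.46 (means of 0.37 ± 0.04 and 0.47 ± 0.04). ROCK2 read 0.71 and 0.56, then 0.74 and 0.68, with means of 0.64 ± 0.04 (1.55-fold) and 0.71 ± 0.04 (1.63-fold), but its other probe read 0.05 and -0.11 and passed the test in neither. CDC42 was similar, at 0.38 ± 0.04 and 0.45 ± 0.04 on its brightest probe and between -0.12 and 0.06 on its other 3, of which 1 was called lower in U87 Si306 + 10 Gy. VCL (0.21 and 0.25), LAMA4 (0.21 and 0.24), RAC1 (0.18 and 0.08) and ITGAV (0.11 and 0.24) were up regulated at both doses, on their brightest probes. The other probe of ITGAV was down regulated at both (-0.26 and -0.23), that of VCL read 0.09 and was then down regulated (-0.15), and those of RAC1 read 0.01 and 0.06 at 2 Gy and -0.09 and -0.06 at 10 Gy.

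ROCK1 was called higher in U87 Si306 + 2 Gy (0.17 ± 0.03), although its other 2 probes fell (-0.17 and -0.24). Actin linkers held 1 up regulated and 7 down regulated of 8 at 2 Gy (against 38.5% and 27.8% of all genes), then 2 and 3 at 10 Gy (against 35.1% and 27.1%). VCL and TLN1, the 2 up regulated at 10 Gy, each had another probe that was down regulated there (-0.15 for both). Of the 7, FLNA, ZYX and TNS1 kept their sign without loess. Of the 5 beta subunits, 1 was up regulated and 3 down regulated at each dose, against the same shares of all genes. PTK2, lowered by PT, read 0.10 ± 0.04 in U87 Si306 + 2 Gy, where its other probes were called in opposite directions (-0.23 and 0.09), and rose by 0.25 ± 0.04 in U87 Si306 + 10 Gy, where another probe also rose (0.23) and the last fell (-0.11). PXN was called lower in U87 Si306 + 2 Gy (-0.29 ± 0.04, with the sign turned to 0.60 without loess) and read -0.01 ± 0.04 in U87 Si306 + 10 Gy, while its other probes read 0.64 and -0.17, then 0.43 and -0.27, so that PXN has no direction of its own here. BCAR1 was called lower in the first (-0.12 ± 0.04) and higher in the second (0.10 ± 0.04), with the first sign turned without loess (0.43). FN1 was not called on its brightest probe (-0.06 and -0.05), and its other probes went opposite ways: one fell to -0.53 and -0.59, and the other rose by 0.31 at 2 Gy and read 0.04 at 10 Gy.

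**Figure D3:**
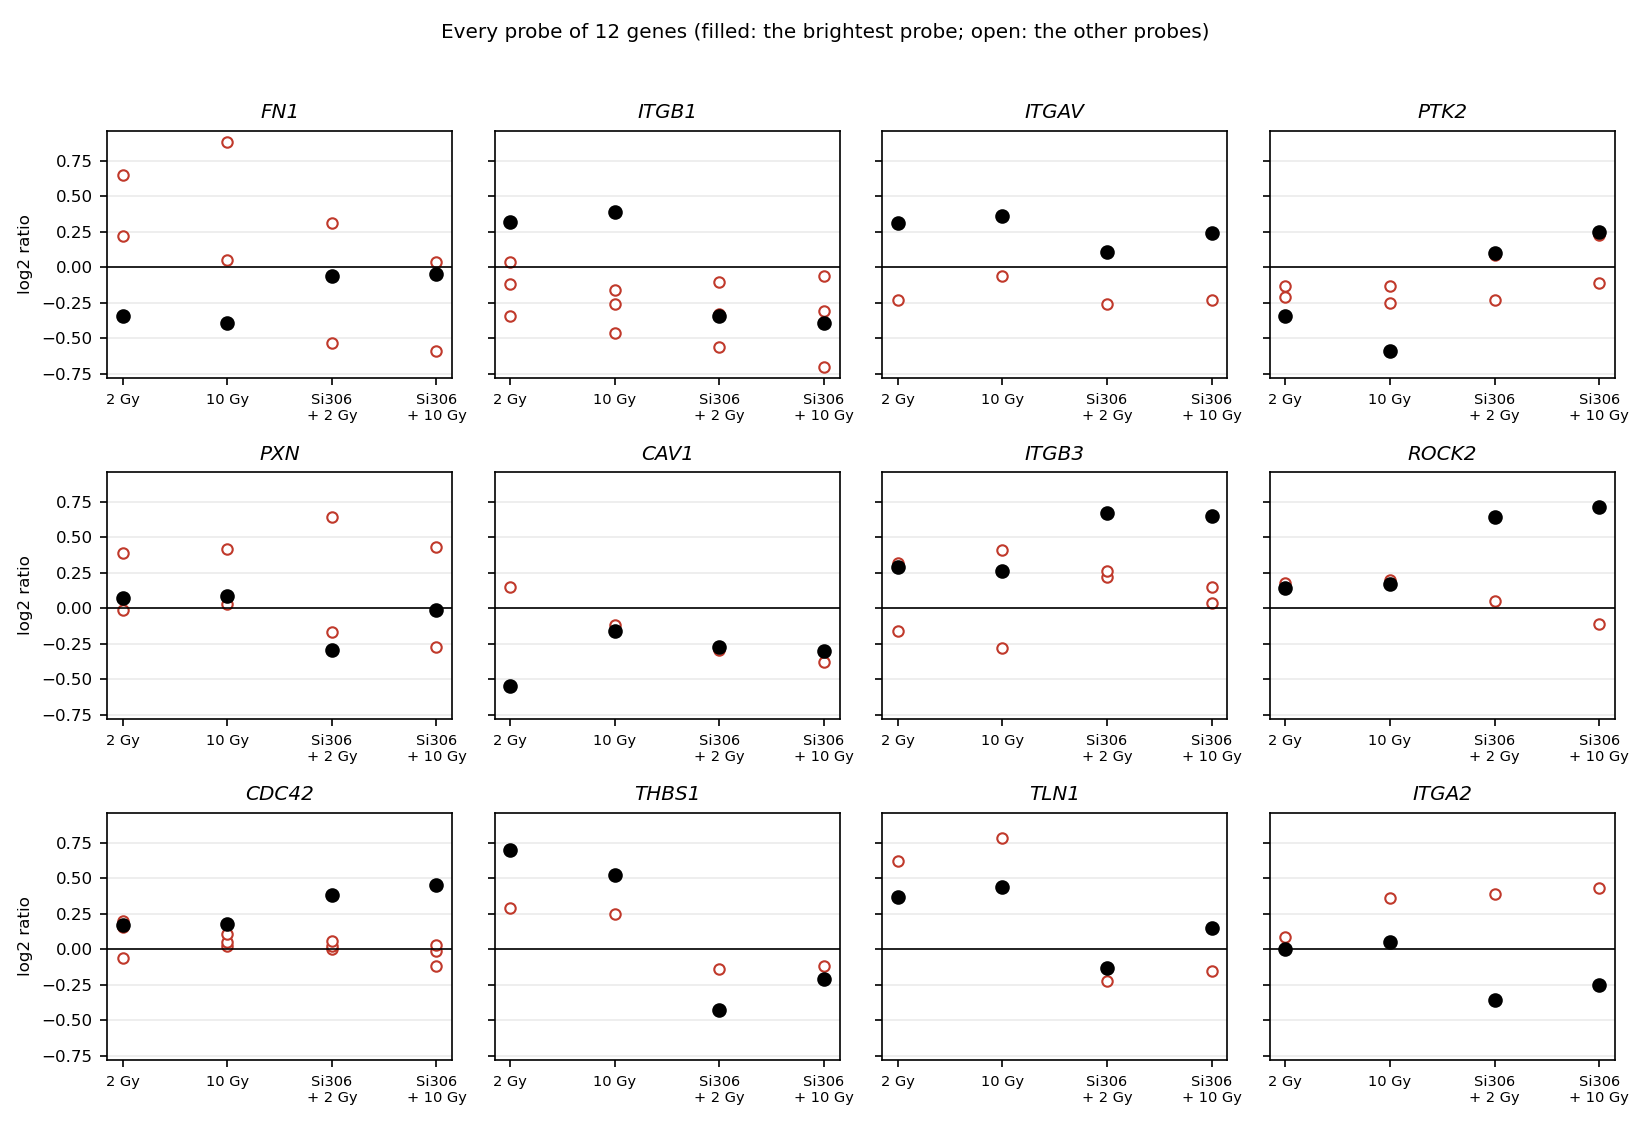
Log2 ratio (vertical axis) of every tested probe of 12 members in the 4 configurations; filled circles are the brightest probe, which stands for the gene, and open circles the others. FN1 spreads from -0.39 to 0.88 in U87 10 Gy, whereas both probes of THBS1 and of TLN1 lie above 0 in the PT configurations.

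Of the members with several tested probes (23), probes were called in opposite directions for 6 at 2 Gy and 3 at 10 Gy after PT alone, and for 6 and 8 with Si306. The 6 in U87 2 Gy were CAV1, FN1, ITGAV, ITGB1, ITGB3 and VCL, and FN1, ITGB1 and ITGB3 were those in U87 10 Gy. In U87 Si306 + 2 Gy they were FN1, ITGA2, ITGAV, PTK2, PXN and ROCK1. In U87 Si306 + 10 Gy they were CDC42, ITGA2, ITGAV, ITGB8, PTK2, PXN, TLN1 and VCL. Which probe reports the transcript that changed was not tested. FLNA, ITGA5, ZYX, ITGA7, ITGB4 and BCAR1 have 1 probe each, so no second reading exists.

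The doses were then compared directly. Between U87 10 Gy and U87 2 Gy, 6 of the 39 members were higher at 10 Gy (15.4%, against 9.87% of all genes) and 5 lower (12.8%, against 11.1%). CAV1 gave the largest difference, 0.40 ± 0.04 (adjusted p = 1.91e-04), since it was lowered less at 10 Gy, but its other probe differed by -0.27. ACTN4 (0.28 ± 0.05), RAC1 (0.24 ± 0.04), RHOA (0.19 ± 0.04) and ITGA5 (0.18 ± 0.04, adjusted p = 0.0204) were also higher at 10 Gy, and PTK2 was lower (-0.25 ± 0.06, adjusted p = 0.018, limma). Other probes of these genes differed less or the other way: 0.03 for ACTN4, 0.00 and -0.03 for RAC1, -0.02 and -0.16 for RHOA, and 0.01 and -0.04 for PTK2. FLNA did not pass the test (0.14 ± 0.06, adjusted p = 0.139). All 11 kept their sign without loess, and the number called ranged from 3 to 10 when an array was left out, with 3 without the second array of U87 10 Gy and 5 without the first array of U87 2 Gy.

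The effect of Si306 differed between the doses mostly one way. The log2 ratio was higher at 10 Gy for 11 members (28.2%, against 10.1% of all genes) and lower for 1 (2.56%, against 12.5%). All 11 were down regulated in U87 Si306 + 2 Gy, so their fall was smaller or absent at 10 Gy. Of them, TLN1 and BCAR1 were up regulated in U87 Si306 + 10 Gy. Actin linkers held 6 of the 11: TLN1 (0.28 ± 0.05), ACTN1 (0.27 ± 0.05), ACTN4 (0.26 ± 0.05), FLNA (0.21 ± 0.06), ZYX (0.20 ± 0.05) and TNS3 (0.16 ± 0.05), and TNS3 turned sign without loess. Their other probes differed by 0.07 for TLN1 and ACTN4, 0.25 for ACTN1 and 0.21 for TNS3. The largest difference was that of ITGB4 (0.29 ± 0.04, adjusted p = 0.00113, limma). Laminin-binding ITGA6 was the member with the opposite difference (-0.23 ± 0.06, adjusted p = 0.024). Without loess 9 of the 12 kept their sign relative to the shift, but 1 of the 12 kept its call on the unshifted values. The median unshifted difference of the members was then -0.16, against 0.07 with loess, and that of all genes was -0.13. The number called ranged from 5 to 12 when an array was left out, with 7 without the first or without the second array of U87 Si306 + 2 Gy and 5 without the first array of U87 Si306 + 10 Gy.

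**Figure D4:**
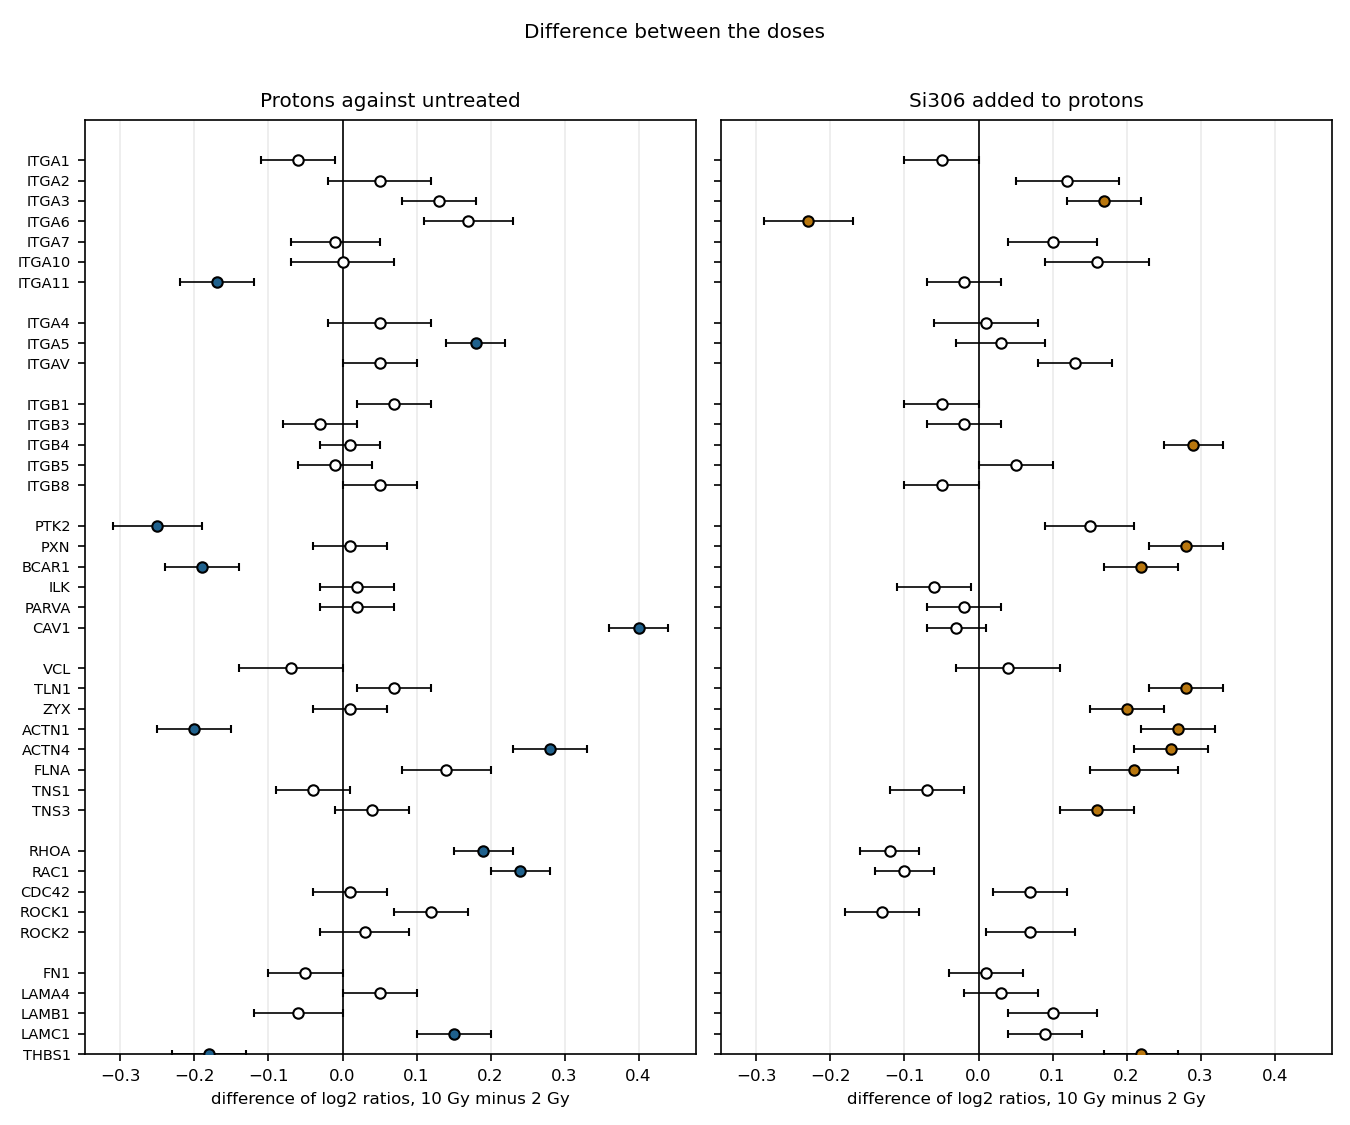
Difference of log2 ratios, 10 Gy minus 2 Gy (horizontal axis), of the 39 tested members for protons against untreated cells (left) and for Si306 added to protons (right); circles are estimates with their SE, filled where the adjusted p was under 0.05. CAV1 at 0.40 lies farthest right on the left, and the actin linkers from TLN1 to TNS3 lie above 0 on the right except TNS1; ITGA3, PXN and TNS3 on the right turned sign without loess.

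**Figure D5:**
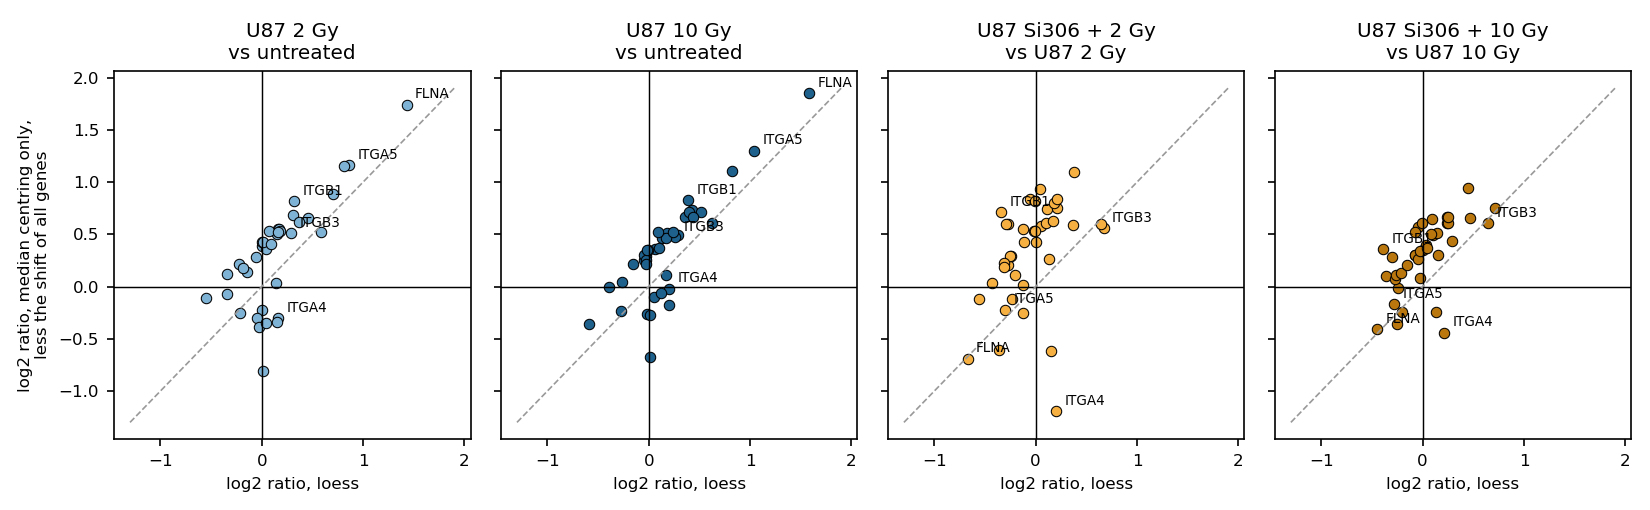
Log2 ratio of the 39 tested members under loess (horizontal axis) against the log2 ratio with median centring alone, less the shift of all genes (vertical axis); the dashed line marks equal values. FLNA lies above the line in the PT panels (1.74 against 1.43 at 2 Gy) and near it in the Si306 panels, while ITGB1 changes from -0.34 to 0.71 in U87 Si306 + 2 Gy.

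A wider list of 88 further integrin, adaptor, signalling and matrix genes, of which 79 were tested, was counted in the same way. After PT alone, 30 of the 78 with a value were up regulated (38.5%, against 32.1% of all genes) and 15 down regulated (19.2%, against 24.9%) at 2 Gy, and 29 of 79 (36.7%, against 31.1%) and 17 (21.5%, against 26.3%) at 10 Gy. With Si306 the counts were 20 (25.3%, against 38.5%) and 31 (39.2%, against 27.8%) at 2 Gy, then 28 (35.4%) each way at 10 Gy, against 35.1% higher and 27.1% lower. Their median log2 ratios were 0.04, 0.05, -0.03 and 0.03. Among those past 2-fold were FLNC, filamin C, a relative of FLNA, at 1.23 ± 0.05 in U87 2 Gy and 1.10 ± 0.05 in U87 10 Gy, and FHL2, a LIM protein of adhesions, at 1.10 ± 0.04 in U87 2 Gy and 0.90 ± 0.04 in U87 10 Gy.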

How the data were processed

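Agilent 2-colour arrays carried treated RNA in Cy5 and control RNA in Cy3. The deposited scanner files (Feature Extraction 9.5.3.1) give, per spot, mean signal intensity, local background, flags and a log10 ratio made by the authors' software, and the deposited series matrix holds the same log10 ratio, within 0.005, with a median of 0 in every column. The array design names the build hg17.

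Here, intensities were corrected with normexp (offset 50), fitted on unflagged spots, and normalized by loess within each scan. Spots with outlier flags (2.98% to 5.73%) were left out. Spots of a probe, then the scans of an array, were averaged (22 of 24 scans, 8 arrays). A probe was kept if, for 1 or more configurations, at least 2/3 of the arrays showed it well above background in red or green, and the brightest probe stood for a gene, leaving 22926 names. Models used limma 3.58.1 in R 4.3.3 (4 residual degrees of freedom, prior 6.55 with SD 0.0538), and the method was tested on simulated data. Calls used an adjusted p under 0.05. A separate count of changes of at least 2-fold was kept. Members of the list were named if past 2-fold, among the 4 largest rises or falls of a configuration, or PTK2, PXN, BCAR1, ITGB1, ITGAV and FN1, and others were named by role. Alternatives covered background correction, normalization, filter, probe choice, use of the scans, left-out arrays and GC content. Members and lists were chosen with earlier results of these data known. Promoters are from RefSeq, with 34 of 41 members matched. Some items are not reported here.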

Additional observations from a re-analysis of the deposited data

Results flagged for a closer look

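These members differed between the doses by the limma test of the difference itself, given here as log2 ratios at 10 Gy minus 2 Gy. For protons against untreated cells they were CAV1 (0.40), ACTN4 (0.28), RAC1 (0.24), RHOA (0.19), ITGA5 (0.18), LAMC1 (0.15), ITGA11 (-0.17), THBS1 (-0.18), BCAR1 (-0.19), ACTN1 (-0.20), PTK2 (-0.25). For Si306 added to protons they were ITGB4 (0.29), PXN (0.28), TLN1 (0.28), ACTN1 (0.27), ACTN4 (0.26), BCAR1 (0.22), THBS1 (0.22), FLNA (0.21), ZYX (0.20), ITGA3 (0.17), TNS3 (0.16), ITGA6 (-0.23). The members ITGA3, PXN and TNS3 turned sign without loess for Si306 added to protons. The call on LAMC1 for protons held in 5 of 21 alternatives and that on TNS3 for Si306 in 9 of 21. These are values of the brightest probe. For protons, other probes differed by 0.03 for ACTN4, 0.00 and -0.03 for RAC1, -0.02 and -0.16 for RHOA, and -0.27 for CAV1. Those of PTK2 differed by 0.01 and -0.04, that of THBS1 by -0.03 and that of ACTN1 by -0.22. For Si306, other probes differed by -0.21 and -0.10 for PXN, 0.02 for THBS1, and 0.07 for TLN1 and ACTN4. Those of ACTN1 and TNS3 differed by 0.25 and 0.21.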

How the results depend on the processing

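The largest dependence was on loess. With median centring alone the median of all genes moved by 0.25, 0.20, 0.39 and 0.23 for PT alone at 2 and 10 Gy and for Si306 added at 2 and 10 Gy, and by -0.12 in the dose difference of Si306. Members up regulated, down regulated and past 2-fold then numbered 31, 2 and 5 in U87 2 Gy, 32, 2 and 4 in U87 10 Gy, 34, 4 and 10 in U87 Si306 + 2 Gy, and 33, 2 and 1 in U87 Si306 + 10 Gy. Members that differed between doses numbered 6 for protons and 20 for Si306, of which 1 was among the 12 called with loess and 19 were not. The share of all called genes that were higher went from 56.3% to 69.5%, 54.2% to 70.2%, 58.1% to 70.8% and 56.5% to 73.2% in the 4 configurations, and from 47.0% to 30.4% and 44.6% to 29.2% in the dose differences. Before the shift is taken off, these log2 ratios of called members, or of PXN, BCAR1, ITGAV and FN1 where uncalled ones were called the other way, changed sign or came to 0.00. In U87 2 Gy ITGA1 0.00, ITGA4 -0.05, ITGB8 -0.09, PTK2 0.18, CAV1 0.14, VCL 0.43, RHOA 0.47, ROCK1 0.39, FN1 0.37. In U87 10 Gy BCAR1 0.49, CAV1 0.42, VCL 0.24, FN1 0.20. In U87 Si306 + 2 Gy ITGA1 0.50, ITGA3 0.68, ITGA6 0.94, ITGA11 -0.23, ITGA4 -0.80, ITGA5 0.17, ITGB1 1.10, ITGB4 0.27, ITGB5 0.62, PXN 0.99, BCAR1 0.82, CAV1 0.99, TLN1 0.40, ZYX 0.27, ACTN1 0.60, ACTN4 0.68, TNS1 0.14, TNS3 0.58, FN1 1.23, THBS1 0.42. In U87 Si306 + 10 Gy ITGA1 0.22, ITGA6 0.33, ITGA11 -0.01, ITGA4 -0.21, ITGA5 0.06, ITGB1 0.59, ITGB4 0.30, ITGB5 0.34, PXN 0.84, CAV1 0.51, TNS3 0.44, FN1 0.80, THBS1 0.36. In the dose difference of Si306 ITGA3 -0.15, ITGAV -0.23, PXN -0.16, BCAR1 -0.10, ACTN1 -0.02, ACTN4 -0.05, TNS3 -0.15, FN1 -0.43, THBS1 -0.07. The cause was not tested.

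With the mean of all probes the log2 ratios that changed sign were in U87 2 Gy ITGB1 -0.03, FN1 0.18 and in U87 10 Gy ITGB1 -0.12, FN1 0.18 and in U87 Si306 + 2 Gy ITGA2 0.01, ITGAV -0.07, ROCK1 -0.08 and in U87 Si306 + 10 Gy ITGA2 0.09, RAC1 -0.02, and 6 members differed between proton doses. ITGA4 with Si306 was 0.00 at both doses by the scanner log ratio and by the value table, which both gave 2 members past 2-fold in each Si306 configuration and 7 that differed between proton doses. The stricter filter and the GC curve each left 1 member past 2-fold in U87 10 Gy. Every scan taken as a sample gave 24 members that differed between doses of Si306. With the replicate number as a block that was again 24, and 8 members were down regulated in U87 10 Gy. The numbers did not pair the samples: same-numbered scans correlated from -0.24 to 0.23. Leaving out an array gave 14 to 20 members higher and 6 to 7 lower in U87 2 Gy, 16 to 21 and 4 to 5 in U87 10 Gy, 10 to 12 and 15 to 19 in U87 Si306 + 2 Gy, and 11 to 15 and 11 to 14 in U87 Si306 + 10 Gy. Members that differed between doses ranged from 3 to 10 for protons and from 5 to 12 for Si306. Dim members (ITGA4, ITGA8, ITGA10, ITGA11, ITGB6 and ITGB8) are limited by signal over background.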
